A study of Mus musculus with 4 samples.

Results

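The simple epithelial keratins Krt7, Krt8, Krt18 and Krt19 were examined in cultured mouse hair follicle stem cells (HFSCs) after short and long culture. The 4 genes were taken by symbol from 24346 gene symbols listed in each library, and all 4 passed the filter on low values that 11018 symbols passed. They were chosen by their levels in these same libraries, which were known to differ between the groups, so that their differences are given as a description and no test is attached to them. Cells were sorted by FACS from the dorsal skin of C3H/HeN mice as positive for CD49f and CD34, and grown in the serum-free medium M-CnT with a passage every week. RNA was sequenced from 2 libraries after 10 passages (10p-HFSCs) and 2 libraries after 48 passages (48p-HFSCs). Strain, sort and medium were shared by both groups, which differ by the number of passages and with it by the time in culture. Neither the labels nor the methods say whether the replicates were separate cultures, so p-values measure only the spread between these samples, which may be technical.

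Keratins are the intermediate filament proteins of epithelia, and a filament is built from heterodimers of a type I and a type II chain. Krt8 and Krt7 are type II chains, and Krt18 and Krt19 are type I chains. Krt8 and Krt18 are the usual partners of single-layered epithelia such as gut, liver and early embryo, and Krt7 and Krt19 are best known from ducts. In skin, Krt5 and Krt14 form the filaments of basal keratinocytes, Krt6a, Krt16 and Krt17 belong to the follicle and to wounded or activated epidermis, and Krt15 and Krt19 are found in the bulge, where HFSCs reside. A chain without a partner is unstable as a protein, which is not visible in RNA.

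In the annotation used here (GENCODE M21 on GRCm38, the assembly also called mm10), 3 of the 4 genes lie in the type II keratin cluster of chromosome 15. Krt7 is at chr15:101411043-101430313 on the plus strand with 9 exons, and Krt8 is at chr15:101996698-102004482 on the minus strand with 9 exons. Krt18, although a type I gene, is the neighbour of Krt8, at chr15:102028180-102032027 on the plus strand with 7 exons. The 2 genes are read away from each other, with 23.7 kb between their starts. Krt19 lies among the other type I genes, at chr11:100140810-100148665 on the minus strand with 6 exons. Positions are those of the whole gene, while exon numbers are those of a single transcript. The 30 bases around the RefSeq start site (GRCm38.p6, from 25 bases before the start) are shown for the members in the RefSeq promoter table, since Krt8 and Krt18 are partners that lie next to each other and had unlike levels in 10p-HFSCs. Capitals mark a TATAAA match.
Krt8, chr15:102004338-102004367, minus strand: tcccctggggctggcctcttctttTATAAA
Krt18, chr15:102028191-102028220, plus strand: cggcgatataacaacaggtcgaggactgcc
Krt7, chr15:101412378-101412407, plus strand: tccgccccgcatggaggaataaaaggtcgc
The whole windows of the table, 250 bases before to 50 bases after the start, were searched on both strands. TATAAA was found in Krt8 alone of these 3 genes and in 13.6% of all 32851 windows. In Krt8 it lay on the start site itself, at -1 on the strand of the gene and -3 on the other. This RefSeq start, 102004342, lies inside the GENCODE gene, which starts at 102004482 on the minus strand. The GC box GGGCGG was found 4 times in Krt7, not in Krt8 or Krt18, and in 35.7% of all windows. The AP-1 motif TGANTCA (7.81% of windows), the ETS motif CCGGAA (14.9%) and the GRHL motif AACCNGTT (2.09%) were found in none of these 3 windows. A match is only a match of letters.

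How far reads of one keratin could be counted for another was examined from the transcripts. The longest run shared by the type II members Krt7 and Krt8 had 30 bases, and that of the type I members Krt18 and Krt19 had 12 bases. They are shown because a run as long as a read would be needed for a read to fit both genes without a mismatch.
Krt7 and Krt8: cagcagaacaagatgctggagaccaagtgg
Krt18 and Krt19: gccacctaccgc
The partners Krt8 and Krt18 shared no run longer than 11 bases. No run of read length in Krt7, Krt18 or Krt19 occurred in a transcript of another gene. In Krt8, 312 of 1858 such runs (16.8%) did, 310 of them in the pseudogene Krt8-ps and 2 in the long noncoding RNA Gm36026, neither of which is a symbol listed in the libraries. Gm36026 also overlaps the start of Krt8 on the other strand. The antisense gene Gm671 overlaps the start of the whole annotated Krt7 gene. It ends at 101412311, before the Krt7 transcript with 9 exons starts at 101412402. The kit marked the strand, but the strand setting of the counting is not given in the sources used here. The Krt8 level, and the Krt7 level if the whole gene span was counted, could thus include reads of these genes.

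Values are FPKM as deposited, by name the reads of a gene scaled by its exon length and by the mapped reads of the library. Levels of different genes can thus be compared. Median-of-ratios factors, which scale a library by the median ratio of its genes, were nearly equal in all 4 libraries. The largest was 1.011, in replicate 2 of 10p-HFSCs. The deposited values were thus already close to a common median scale, and need not be scaled by mapped reads alone. Read totals are not known from FPKM. Depth was read from the steps between low values, which follow the scaling of the deposited values and need not match mapped reads. Relative to replicate 1 of 10p-HFSCs it was between 46.7% and 82.9% in the other libraries, and lowest in replicate 2 of 48p-HFSCs. This library also had the highest summed FPKM, 1414953 against 581516 to 719012 in the others, so that results are given both in FPKM and after scaling each library to the same sum (TPM). Across genes, Pearson's r was 0.981 between the 10p-HFSC replicates and 0.950 between the 48p-HFSC replicates. The RNA of markers of the labelled cell type was mostly low. Of 12 bulge stem cell markers, 8 were under an FPKM of 1 in all 4 libraries, and Cd34 itself was between 0.0925 and 0.234. The paper reported CD34 protein on most cells of both groups. Its qRT-PCR had Cd34 and Krt15 maintained, and Lhx2 and Sox9 increased in 48p-HFSCs. Here Lhx2 was among the 8, and Sox9 was lower in both 48p-HFSC libraries than in both 10p-HFSC libraries. All 10 basal keratinocyte markers passed the filter.

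Krt18 was the member with the widest gap between the groups. Its FPKM was 0.286 and 0.285 in the 10p-HFSC libraries, and 329 and 1120 in the 48p-HFSC libraries. The gene thus went from rank 11469 and 11602 among all symbols in 10p-HFSCs to rank 244 and 160 in 48p-HFSCs. The lower 48p-HFSC library was 1151 times as high as the higher 10p-HFSC library, while the 48p-HFSC replicates themselves differed 3.41-fold. The mean was 0.285 ± 0.000541 in 10p-HFSCs against 724 ± 559 in 48p-HFSCs (SD, n = 2 each), which is 8.89 as a difference of log2(FPKM + 1). This scale understates the difference of a gene that is low in 1 group, and without the pseudocount the log2 difference was 11.05. The 10p-HFSC values lie near the floor, so their small SD is not a measure of precision. Ratios built on them are imprecise. In bulk RNA, fewer cells with a transcript and less of it per cell cannot be told apart, so these values do not say whether all or a part of the 48p-HFSCs carried Krt18 RNA.

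Krt8, the type II partner of Krt18, was high in all 4 libraries. Its FPKM was 377 and 323 in 10p-HFSCs against 956 and 1519 in 48p-HFSCs. Krt8 was the third most abundant keratin RNA of both 10p-HFSC libraries, in which its partner was nearly missing. The means were 350 ± 37.8 and 1238 ± 398 (SD, n = 2), a ratio of 3.53 and a log2 difference of 1.78. Krt8 was higher in replicate 2 than in replicate 1 of 48p-HFSCs in FPKM (1.59-fold), but lower after TPM scaling (0.748-fold). For Krt18 replicate 2 was the higher one on both scales, 3.41-fold in FPKM and 1.60-fold in TPM.

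Krt19, a type I chain that can pair with Krt7 or Krt8, was at an intermediate level. Its FPKM was 14.2 and 12.1 in 10p-HFSCs against 154.7 and 48.8 in 48p-HFSCs. The groups did not overlap, but the 48p-HFSC replicates were 3.17-fold apart, in the direction opposite to that of Krt18 and, in FPKM, of Krt8. After TPM scaling they were 6.74-fold apart, at 232 and 34.5 TPM. The means were 13.2 ± 1.46 and 102 ± 74.9 FPKM (SD, n = 2), a ratio of 7.73 and a log2 difference of 2.64. Without replicate 1 of 48p-HFSCs the log2 difference was 1.82, and without replicate 2 it was 3.46.

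Krt7, the other type II member, was low throughout. Its FPKM was 1.52 and 0.789 in 10p-HFSCs against 2.73 and 2.80 in 48p-HFSCs. The means were 1.15 ± 0.516 and 2.76 ± 0.0505 (SD, n = 2), a log2 difference of 0.83. The groups did not overlap in FPKM, but they did in TPM, where the values were 2.61 and 1.10 in 10p-HFSCs against 4.10 and 1.98 in 48p-HFSCs. In order of level, the members were thus Krt8, Krt19, Krt7 and Krt18 in 10p-HFSCs, and Krt8, Krt18, Krt19 and Krt7 in both 48p-HFSC libraries. In 10p-HFSCs no neighbours in this order overlapped between their replicates. In 48p-HFSCs Krt8 and Krt18 did, since Krt18 in replicate 2 was above Krt8 in replicate 1.

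**Figure D1:**
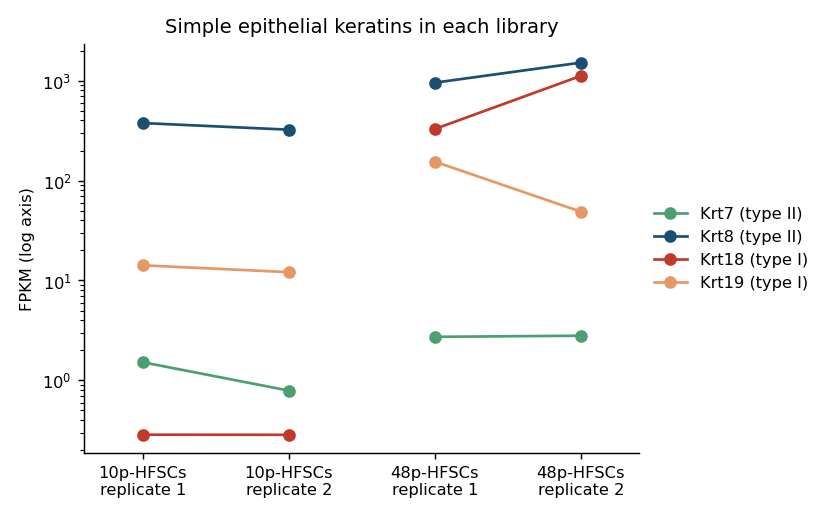
FPKM on a log axis (vertical) of Krt7, Krt8, Krt18 and Krt19 in each of the 4 libraries (horizontal); points are single libraries and lines join the 2 replicates of a group. Krt18 lies at 0.286 and 0.285 in 10p-HFSCs against 329 and 1120 in 48p-HFSCs, Krt8 is the highest of the 4 in every library, and the 48p-HFSC replicates of Krt19 run opposite to those of Krt18.

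All 4 members were higher in both 48p-HFSC libraries than in both 10p-HFSC libraries, which was so for 31.7% of the 11018 genes analysed, while 34.3% were lower in both 48p-HFSC libraries than in both 10p-HFSC libraries. The members were chosen with this contrast known, so nothing is read from their count. TPM scaling moved the median log2 difference of all genes from -0.03 to -0.55. Relative to that median, the log2 difference was 0.86 in FPKM and 1.02 in TPM for Krt7, and for Krt8 it was 1.82 in FPKM and 1.74 in TPM. For Krt18 it was 8.92 in FPKM and 9.13 in TPM, and for Krt19 it was 2.67 in FPKM and 2.63 in TPM. Quantile normalization, which gives every library the same set of values, left 1.23 for Krt8 relative to the median.

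The make-up of the simple keratin RNA was nearly the same in both 10p-HFSC libraries and different in 48p-HFSCs. Krt8 accounted for 95.9% and 96.1% of the summed FPKM of the 4 genes in 10p-HFSCs against 66.3% and 56.5% in 48p-HFSCs. Krt18 accounted for 0.0727% and 0.0847% in 10p-HFSCs against 22.8% and 41.6% in 48p-HFSCs. These shares are ratios within a library and do not depend on how libraries are scaled. Krt19 was the next after Krt8 in 10p-HFSCs, with 3.61% and 3.60%, and its share in 48p-HFSCs was 10.7% in replicate 1 and 1.81% in replicate 2. The 10p-HFSC values of Krt19 lie between the 48p-HFSC values, so its share did not separate the groups. Krt7 had less than all others in 48p-HFSCs, 0.189% and 0.104%, against 0.387% and 0.234% in 10p-HFSCs.

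**Figure D2:**
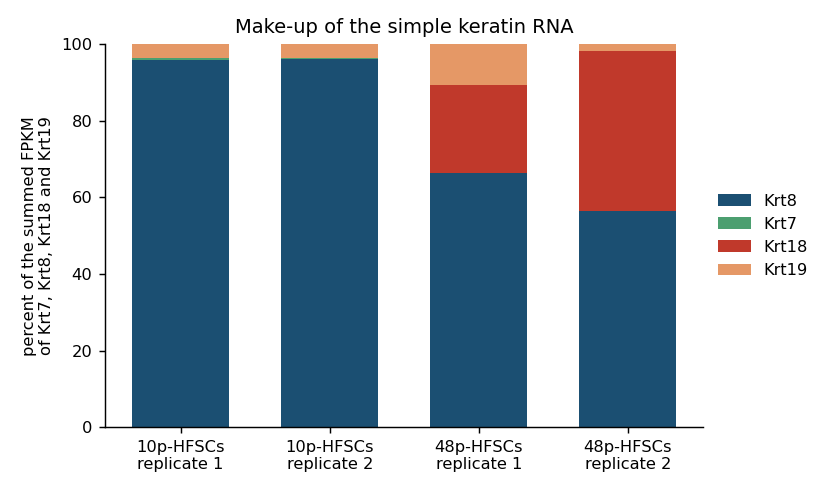
Percent (vertical) of the summed FPKM of Krt7, Krt8, Krt18 and Krt19 that each gene takes, as a stacked bar for each library (horizontal). Krt8 fills 95.9% and 96.1% of the bars of 10p-HFSCs, and Krt18 takes 22.8% and 41.6% in 48p-HFSCs; Krt7 is under 1% and hardly visible.

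Since type I and type II chains pair, their RNA was set against each other within each library. In 10p-HFSCs the summed FPKM of the type I members Krt18 and Krt19 was 3.83 for every 100 of the type II members Krt7 and Krt8 in both libraries, and 50.4 and 76.8 in 48p-HFSCs. Type II simple keratin RNA was therefore in excess in every library, 26.1-fold in both 10p-HFSC libraries, and 1.98-fold and 1.30-fold in 48p-HFSCs. On the log2 scale the balance was -4.71 and -4.71 in 10p-HFSCs against -0.99 and -0.38 in 48p-HFSCs, a difference of 4.02. The replicates differed by at most 0.61.

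The partners Krt8 and Krt18 carried most of this. There was 1319 and 1135 times as much Krt8 as Krt18 RNA in 10p-HFSCs against 2.91 and 1.36 times as much in 48p-HFSCs. The 10p-HFSC ratios rest on Krt18 values near the floor and are imprecise. The log2 ratio of Krt18 to Krt8 was -10.37 and -10.15 in 10p-HFSCs against -1.54 and -0.44 in 48p-HFSCs, so the 48p-HFSC replicates were 1.10 apart while the groups were 9.27 apart. The log2 ratio of Krt19 to Krt8 gave another picture, with -4.73 and -4.74 in 10p-HFSCs against -2.63 and -4.96 in 48p-HFSCs. Its groups overlapped, and replicate 2 of 48p-HFSCs lay next to the 10p-HFSC libraries. Krt19 to Krt7 was 3.22 and 3.94 in 10p-HFSCs against 5.83 and 4.12 in 48p-HFSCs, with replicate 2 of 48p-HFSCs close to replicate 2 of 10p-HFSCs.

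The basal pair had the opposite direction. The log2 ratio of Krt14 to Krt5 was -0.34 and -0.27 in 10p-HFSCs against -1.07 in both 48p-HFSC libraries. Over all 52 keratin genes listed, the log2 balance of type I to type II was -0.56 and -0.57 in 10p-HFSCs against 0.29 and 0.27 in 48p-HFSCs. The difference of 0.84 was 0.72 without the 4 simple keratins, and it turned to -0.34 without Krt17. Krt17 alone made up 57.2% and 54.9% of all type I keratin RNA in 48p-HFSCs, against 0.0185% and 0.0231% in 10p-HFSCs. Without Krt17 there was more type II than type I keratin RNA in every library, as there was among the simple keratins. With only 2 libraries a group, an exact permutation test of any such ratio cannot give a two-sided p below 0.333, and none was made.

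**Figure D3:**
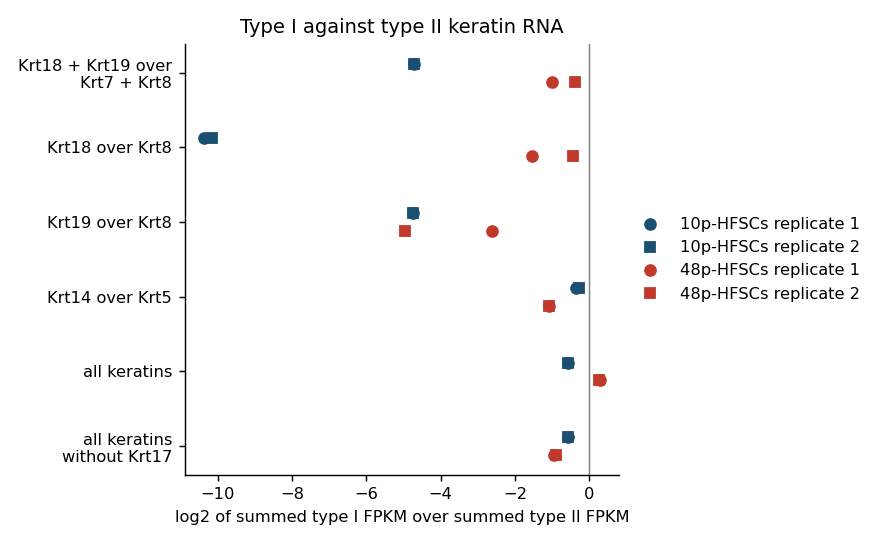
Log2 of summed type I over summed type II keratin FPKM (horizontal) in each library, for the pairs and sums named on the vertical axis; blue points are 10p-HFSCs, red points 48p-HFSCs, circles replicate 1 and squares replicate 2. Krt18 over Krt8 moves from -10.37 and -10.15 to -1.54 and -0.44, Krt19 over Krt8 overlaps between the groups, and Krt14 over Krt5 goes from -0.34 and -0.27 to -1.07.

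Among all keratins, the simple keratins took similar shares in both 10p-HFSC libraries and unlike shares in the 48p-HFSC libraries. They made up 9.81% and 10.0% of the summed keratin FPKM in 10p-HFSCs against 6.65% and 17.8% in 48p-HFSCs. The 48p-HFSC values lie on either side of those of 10p-HFSCs, so no direction held for this share. The summed FPKM of the 4 genes was 393 and 337 in 10p-HFSCs against 1442 and 2690 in 48p-HFSCs, while that of all keratins was 4004 and 3367 against 21701 and 15120. Within the type I keratins the simple members went from 0.895% and 0.914% to 4.05% and 14.2%. Within the type II keratins they took 15.9% and 16.1% in 10p-HFSCs against 9.81% and 22.2% in 48p-HFSCs, which again overlapped.

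The other keratins were tested with limma on log2(FPKM + 1), and a gene was called at an adjusted p under 0.05 and a log2 difference of at least 1. Calls were made for 10.8% of the tested genes as higher and for 9.15% as lower in 48p-HFSCs. Of 48 other keratin genes listed, 30 were under an FPKM of 1 in every library and 14 of these were at 0 in all. Of the 13 that passed the filter, 2 were called higher, 2 lower and 9 were not called. Their median log2 difference was -0.22, against -0.03 for all genes, and in TPM -0.60 against -0.55.

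Krt17 and Krt16, both type I chains of the follicle and of activated epidermis, were called higher. Krt17 had a log2 difference of 12.06, larger than that of Krt18. Krt16 was at an FPKM of 8.97 and 9.12 in 10p-HFSCs against 272 and 87.6 in 48p-HFSCs. Its log2 difference was 3.95 (standard error 0.53, limma adjusted p = 0.0059), and the call was lost without either 10p-HFSC replicate (adjusted p = 0.13 and 0.12). Krt6a, a type II partner of both though not the only type II chain present, was at 193, 202, 643 and 217. It was not called (limma adjusted p = 0.28).

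Krt23 and Krt76, named after their values were seen, were called lower. Krt23, a type I chain, was at 9.22 and 8.89 in 10p-HFSCs against 0.0441 and 0 in 48p-HFSCs, a log2 difference of -3.30 (limma adjusted p = 0.0011). Krt76, a type II chain known from the palate, was at 3.85 and 7.15 in 10p-HFSCs against 0.140 and 0.0496 in 48p-HFSCs. Its log2 difference was -2.52 (limma adjusted p = 0.0050), and it was no longer called without replicate 2 of 10p-HFSCs (adjusted p = 0.050).

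The keratins of the basal layer and the bulge were not called. Krt5 was at 1805 and 1473 in 10p-HFSCs against 8156 and 5120 in 48p-HFSCs, a log2 difference of 1.99 (limma adjusted p = 0.18, and 0.039 in TPM, where Krt5 was called higher). Krt14 was at 1423 and 1217 against 3896 and 2439 (limma adjusted p = 0.28). For both, the groups did not overlap. Krt15 was at 136 and 82.6 in 10p-HFSCs against 425 and 18.8 in 48p-HFSCs, so that its 48p-HFSC libraries stood on either side of 10p-HFSCs. Krt13 was at 17.5 and 17.3 against 20.6 and 3.39. In FPKM, all 13 other keratins that passed the filter were, like Krt19, lower in replicate 2 than in replicate 1 of 48p-HFSCs. On this scale 48.7% of all genes analysed were lower in it, Krt8 and Krt18 were higher, and Krt7 was nearly equal (2.73 and 2.80). In TPM, Krt7 (0.483-fold) and Krt8 (0.748-fold) were lower in replicate 2 too, and of the members only Krt18 was higher (1.60-fold).

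**Figure D4:**
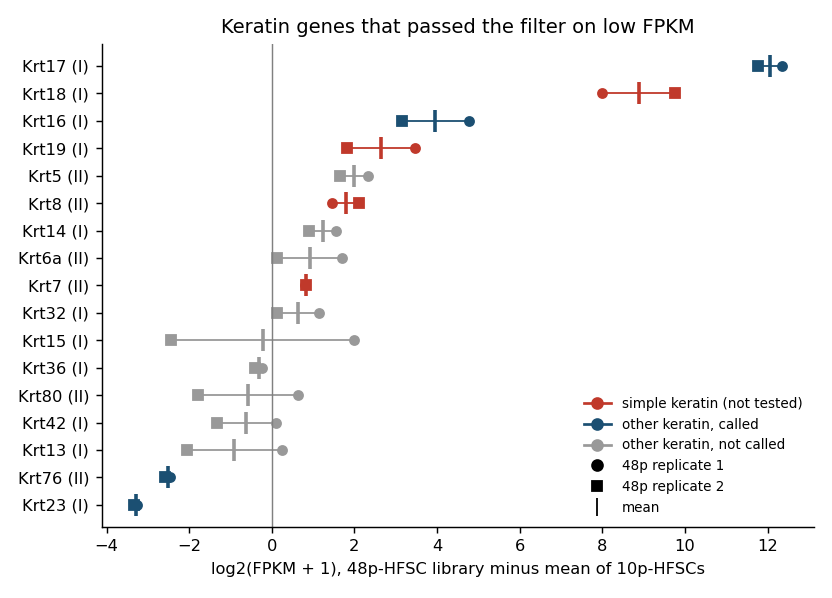
Difference in log2(FPKM + 1) (horizontal) of each 48p-HFSC library from the mean of 10p-HFSCs, for the 17 keratin genes that passed the filter (vertical, type in brackets); circles are replicate 1, squares replicate 2 and the vertical mark is their mean. The simple keratins (red, not tested) have means of 0.83 to 8.89, Krt17 and Krt16 were called higher and Krt23 and Krt76 lower (blue), and Krt15 spreads to both sides of 0 (grey, not called).

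Genes that work with keratin filaments or with simple epithelia were taken as lists, and their counts stand beside the 10.8% and 9.15% of all genes. Of the other intermediate filament genes, 6 of 18 passed the filter, with 1 called higher and 1 lower and a median log2 difference of 0.04. Vim, the vimentin of mesenchymal and of many cultured cells, was at 284 and 327 in 10p-HFSCs against 2.35 and 3.08 in 48p-HFSCs, a log2 difference of -6.37 (limma adjusted p = 0.00056). Des, the desmin of muscle, was at 0.649 and 0.930 against 10.8 and 10.7 (limma adjusted p = 0.0021). Vim and the simple keratins thus stood on opposite sides, with Vim near the level of Krt8 in 10p-HFSCs and near that of Krt7 in 48p-HFSCs.

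Of 25 genes listed as linkers and organisers of keratin filaments, 24 passed the filter, 4 were called higher and 0 lower. The list also holds Krtcap2 and Krtcap3, which are named for keratinocytes and not for a part in filaments. Of the 24, 7 had an unadjusted limma p under 0.05, as did 37.4% of all genes analysed. The median log2 difference of the list was 0.33 in FPKM and -0.16 in TPM, where 1 was called higher. Sfn, the 14-3-3 protein of stratified epithelia, was at 174 and 218 against 710 and 826 (log2 difference 1.97, limma adjusted p = 0.021), and it was the gene that was also called in TPM. Evpl, the envoplakin of the cornified envelope, was at 2.57 and 2.55 against 10.6 and 9.46 (limma adjusted p = 0.011). Krtcap3 was at 19.0 and 21.6 against 47.2 and 85.0 (limma adjusted p = 0.026), and is also among the called surface and junction genes. The desmosomal plakophilin Pkp1 was at 85.5 and 88.8 against 232 and 168 (limma adjusted p = 0.047). Plec, the plectin that ties keratin to hemidesmosomes, was at 18.2 and 20.9 against 21.3 and 18.4.

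Of 37 transcription factors of simple epithelia or known at simple keratin genes, 26 passed the filter, 8 were called higher and 2 lower, with a median log2 difference of 0.29. In TPM 1 was called higher and 2 lower, with a median of -0.27. Ehf, an epithelial ETS factor, was at 0.0351 and 0 against 5.64 and 3.30 (limma adjusted p = 0.0044), and was called on both scales. Jun, an AP-1 subunit, was at 7.26 and 6.38 against 31.9 and 35.0 (limma adjusted p = 0.0038, and 0.10 in TPM). Ovol1, an epithelial zinc finger factor, was at 0.997 and 0.835 against 8.31 and 6.95 (limma adjusted p = 0.0043, and 0.078 in TPM), and Ets1 at 1.96 and 1.48 against 14.5 and 6.97 (limma adjusted p = 0.019, and 0.18 in TPM). The calls of Jun, Ovol1 and Ets1 were thus made in FPKM but not in TPM. Ovol2, the relative of Ovol1, was at 4.01 and 4.45 against 0 and 0.207 (limma adjusted p = 0.0031), and the follicle factor Sox9 at 45.6 and 44.2 against 20.2 and 8.31 (limma adjusted p = 0.039); both were called lower on both scales.

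Of 28 surface and junction genes of simple epithelia, 18 passed the filter, 7 were called higher and 0 lower, where 9 of the 18 had an unadjusted limma p under 0.05, beside the 37.4% of all genes. Their median log2 difference was 0.57 in FPKM and 0.05 in TPM, where 4 were called higher and Epcam was called lower. Ap1m2, an epithelial subunit of the clathrin adaptor AP-1, had a level of 49.9 and 68.5 in 48p-HFSCs and was listed at 0 in the 10p-HFSC libraries (limma adjusted p = 0.00081). The tight junction gene Cldn4 was at 62.9 and 63.0 against 191 and 374 (limma adjusted p = 0.018), and Rab25, a GTPase of apical recycling, at 61.0 and 77.4 against 166 and 273 (limma adjusted p = 0.029). Epcam itself was at 338 and 288 against 150 and 238 (limma adjusted p = 0.22, and 0.012 in TPM). Over the lists together, with Krtcap3 not repeated, 19 of 73 genes were called higher and 3 lower. Without either 10p-HFSC replicate, 1 was called higher, and 1 lower.

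Markers of cell types are given as lists, beside the members' differences. Some of these cell types carry simple keratins, and not all of them occur in skin. Of 10 Merkel cell markers, which mark the Krt8-, Krt18- and Krt20-positive touch cells, 8 were under an FPKM of 1 in all libraries, with Krt20 at most 0.0341, and Sox2 was called lower, at 14.3 and 13.8 in 10p-HFSCs while listed at 0 for 48p-HFSCs. The summed level of the list was 22.0 and 22.6 against 7.24 and 5.09. Sweat gland markers were under 1 for 7 of 10, and summed to 91.0 and 114 in 10p-HFSCs against 27.4 and 18.8 in 48p-HFSCs. Aqp5, the water channel of gland cells, was called lower, at 63.0 and 87.9 against 4.24 and 0.466. These sums rest on few genes, in the Merkel cell list on Sox2 and on Isl1, which was not called, and in the sweat gland list on Aqp5, Foxc1 and Slc12a2. Slc12a2 was at 15.6 and 11.7 against 17.4 and 11.4 and was not called. The part of these cell types in the members' levels was not tested.

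Of 12 trophoblast markers, 10 were under 1 in all libraries, and the sum was 9.88 and 7.30 against 103 and 106. In 48p-HFSCs this sum consisted almost wholly of Prl2c2 (proliferin), which was called higher, at 6.74 and 3.83 against 98.6 and 98.3 (limma adjusted p = 0.0012), while Cdx2, Hand1 and Tfap2c were at 0. Of the mesothelial markers other than the simple keratins, 3 of 4 were under 1, and Msln was called higher, at 7.34 and 6.50 against 31.4 and 46.7 (limma adjusted p = 0.0049, and 0.057 in TPM). Of 12 sebaceous markers, 7 were under 1, the sum was 439 and 416 against 576 and 652, and Scd1 was called lower. The higher sum came from Fabp5, which was not called, at 205 and 218 against 477 and 530, while Scd1 was at 87.2 and 74.0 against 22.5 and 21.9. Plin2 was at 138 and 118 against 64.9 and 88.2 and was called lower in TPM. Of 8 markers of the upper follicle, 2 were under 1, and Krt17 and Sprr1a were called higher. Lrig1 was called lower in FPKM but not in TPM, at 23.5 and 19.6 against 8.85 and 9.87 (limma adjusted p = 0.033, and 0.096 in TPM). The sum of this list was 116 and 106 in 10p-HFSCs, most of it Plet1, against 6961 and 4788 in 48p-HFSCs, most of it Krt17. The part of the cells of these lists was likewise not tested.

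In 48p-HFSCs 4 of 10 basal keratinocyte markers were called higher and 0 lower, with 5 at an unadjusted limma p under 0.05 beside 37.4% of all genes, and the sum was 3880 and 3174 against 13008 and 8553. Of 12 bulge markers, Itga6 was called higher in FPKM but not in TPM (limma adjusted p = 0.014, and 0.14 in TPM). Sox9 was called lower on both scales. The sum of the bulge markers was 226 and 163 against 552 and 113. Krt15 was the highest of these markers in every library but replicate 2 of 48p-HFSCs, where Itga6 was, at 79.0. Of 10 fibroblast markers, 8 were under 1, and Vim and Col1a2 were called lower. Their sum was 353 and 388 in 10p-HFSCs against 2.63 and 3.39 in 48p-HFSCs, and their part in the members' levels was not tested.

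The genes most like each member were taken by the Euclidean distance of log2(FPKM + 1) over the 4 libraries, among 11014 genes. For Krt18 they were Lgals7 (distance 2.22), an epidermal galectin, Rhox5 (2.35), an X-linked homeobox gene of testis and placenta, and Bcl2l15 (2.40). Rhox5 was at 0.736 and 0.685 in 10p-HFSCs against 1491 and 1770 in 48p-HFSCs. For Krt8 they were Gng5 (0.62), Tagln2 (0.73) and Atp5h (0.85), genes that most cells use. Gng5 was at 299 and 453 against 942 and 1750, and so shared both the level and the difference of Krt8. For Krt19 they were Ptgfrn (1.17), Mt4 (1.32), a metallothionein of stratified epithelia, and Clic3 (1.32). Mt4 was at 5.95 and 7.58 against 147 and 59.2, with replicate 1 above replicate 2 in 48p-HFSCs as for Krt19. For Krt7 they were Add2 (0.34), Cdon (0.35) and Rgl1 (0.37), all under an FPKM of 4. No simple keratin was among the 3 nearest genes of another. The closest were Krt18 and Krt19, at a distance of 6.73, against 2.22 for Lgals7 and Krt18. Krt19 stood at place 131 from Krt18, but Krt18 at place 8335 from Krt19.

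Genes annotated within 100 kb of each member were compared as counts, beside the 10.8% of all genes called higher and the 9.15% called lower. These counts are small, and a difference of the region was not tested. Near Krt18, 3 other genes passed the filter and 2 were called higher, Tns2 (log2 difference 1.57, limma adjusted p = 0.017) and Spryd3 (1.68, limma adjusted p = 0.017), and 0 were called lower. Tns2 lies within the same distance of Krt8, where it was called among 2 genes that passed. Tns2 was at 4.78 and 5.34 against 14.3 and 20.0, and Spryd3 at 10.8 and 11.8 against 30.2 and 48.3. Their values were well below those of Krt18 in 48p-HFSCs and, unlike it, were above an FPKM of 4 in all libraries. The keratins Krt78 and Krt79 on the other side of Krt8 did not pass the filter. Near Krt19, 1 of 6 genes, Krt16, was called higher and 0 lower, and near Krt7, the 1 gene that passed, Krt80, was not called.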

How the data were processed

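RNA of 4 libraries was analysed, 2 of 10p-HFSCs and 2 of 48p-HFSCs, grouped by the labels. The authors made libraries with a stranded mRNA kit, mapped single-end reads to mm10 and deposited 1 FPKM value per gene symbol and library. The submitters' processing notes name TopHat2 2.1.1, Bowtie2 2.2.8, SAMtools 0.1.18 and Cuffdiff 2.2.1, while the methods name Cufflinks. Gene annotation, strand setting and treatment of multi-mapping reads are not given in the sources used here. Absolute depth is unknown, so no counting interval is given. Relative depth was read from the most common ratio of FPKM values under 0.3 to those of replicate 1 of 10p-HFSCs.

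Values were taken as log2(FPKM + 1) for genes that reached an FPKM of 1 in 2 or more libraries. All genes kept were fitted with limma 3.58.1 in R 4.3.3 (lmFit, eBayes with a variance trend) and Benjamini-Hochberg adjustment. A gene was called at an adjusted p under 0.05 with a log2 difference of 1 or more in either direction. The fit was tested on simulated data. Sums, shares and ratios of keratins used FPKM without a pseudocount. Positions and transcripts came from GENCODE M21, start sites and promoter windows from RefSeq (GRCm38.p6). The symbols Krt87, Krt88, Krt90 and Muc16 were not matched.

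The members and all lists were chosen with earlier results of these data known. Named were the members, other keratins with an FPKM of at least 10 in any library, the 3 genes nearest to each member, up to 4 called genes with the largest differences of each list in each direction, called neighbours, and marker genes with an FPKM of at least 10. Krt20, Cd34, Lhx2, Cdx2, Hand1, Tfap2c, Plec, Epcam, Krt23, Krt76, Isl1 and Krt78 to Krt80 were named after their values were seen. Alternatives were a pseudocount of 0.1, TPM, median-of-ratios and quantile scaling, no filter, a mean FPKM of at least 1, a constant variance prior, no limit on the fold, a replicate block and each library left out in turn. Of the surface and junction genes, 1 gene that this rule names is not reported here, and it stays in the counts.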

Additional observations from a re-analysis of the deposited data

How the results depend on the processing

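The direction of the 4 members' log2 differences held under every alternative run. Relative to the spread between replicates, Krt7 (0.83) moved to 1.25 with a pseudocount of 0.1, to 0.47 in TPM and to 1.34 without a pseudocount. Krt8 (1.78) moved to 1.20 in TPM and 1.15 under quantile normalization, and Krt18 (8.89) to 10.62 with a pseudocount of 0.1 and 11.05 without one. The balance of the simple keratins (4.02) was 9.27 for Krt8 with Krt18 and 1.39 for Krt7 with Krt19. That of all keratins (0.84) was 0.72 without the simple keratins, 0.72 without Krt18 and turned to -0.34 without Krt17. The difference in the simple keratins' share of all keratins, 2.31 percentage points, ranged from -3.26 without replicate 2 of 48p-HFSCs to 7.89 without replicate 1. The alternatives without a pseudocount and without Krt18 were chosen after seeing the data.

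Leaving out 1 library at a time, other keratins called higher (2) ranged from 1 to 3 and called lower (2) from 1 to 6. Genes of the other lists called higher (19) ranged from 1 to 23, and called lower (3) from 1 to 6; the lowest counts were those without a 10p-HFSC library. All genes called higher (1189) ranged from 35 to 1936 and called lower (1008) from 140 to 1875. A fit with 1 library in a group assumes that it varies like the other group. In TPM 7 list genes and 620 of all genes were called higher. Without the filter, 10 list genes were called higher and 637 of all genes lower, and under quantile normalization 5 list genes were called lower. The cause of these changes was not tested.

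The labels do not say that a replicate number marks a shared batch, and with 2 pairs the numbers were not taken as pairing. Deviations of same-numbered libraries correlated across genes at r = 0.41. Under the replicate block, calls rose to 1613 higher and 1497 lower over all genes, the other keratins stayed at 2 and 2, and list genes went to 20 higher, with Lmna added, and 4 lower, with Macf1 added. Over all alternatives of these results, 104 values stayed within the spread between replicates or within 1.5 times the count, 31 moved and 2 turned. Of the counts of single lists, 79 stayed and 25 moved. With 2 replicates a group, leaving out 1 library cannot shift a difference, balance or share beyond this spread. The replicate block leaves every log2 difference unchanged. Such values could not be counted as moved, so their staying is no sign of stability. Low values are least precise in replicate 2 of 48p-HFSCs, which had the lowest depth as read from the steps between low values.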
